A study of Drosophila melanogaster with 4 samples.

Results

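GAGA factor (GAF), the zinc-finger protein encoded by Trl, was mapped by ChIP-seq, the sequencing of DNA recovered by chromatin immunoprecipitation, in late embryos of Drosophila melanogaster, and its clusters in assembled heterochromatin and in unplaced sequence are described here. A cluster is a region of significant enrichment with a score above 0 in a deposited region list. The members were all clusters of the authors' combined list on the heterochromatin scaffolds 2LHet, 2RHet, 3LHet, 3RHet, XHet and YHet and on the unplaced sequence U. There were 202 such clusters among 6474 in all, 120 of them on the 6 scaffolds and 82 on U. All samples came from wild-type embryos of the strain Oregon-R, aged 14 to 16 hours, and the labels give no treatment and no mutant allele. The series has 2 GAF ChIP replicates and 2 inputs, which are chromatin sequenced without immunoprecipitation. The lists analysed are 1 for each ChIP replicate and 1 combined list, while the inputs were not analysed here. By the labels the inputs are crossed, input 1 being that of ChIP replicate 2 and input 2 that of ChIP replicate 1, and what this means for each list was not tested. Whole embryos were used, so a cluster does not say in which cells GAF was bound. Nothing in the labels ties the replicates to separate collections of embryos, and their spread may therefore be technical.

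GAF binds GA-rich DNA and is known for its work at gene promoters, at heat shock genes and at response elements of Polycomb and trithorax proteins, where it helps to keep chromatin open. It also has a known link to heterochromatin, the compact and repeat-rich chromatin around centromeres and on the Y chromosome. In Drosophila embryos GAF associates with GA-rich satellite repeats during mitosis, and mutations of Trl modify the silencing of genes placed next to heterochromatin. The scaffolds whose names end in Het hold the parts of heterochromatin that could be assembled and assigned to an arm in FlyBase release 5, the build named in the file headers. U strings together pieces that were not assigned to any chromosome, so neighbours on U need not be neighbours in the genome. The headers also list a further sequence, Uextra, of 29.0 Mb. It had no cluster in the combined list, and the lists do not show whether reads were aligned to it. Values for U do not cover it.

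Per list, replicate 1 had 5694 clusters, replicate 2 had 5709 and the combined list had 6474. The lists hold no read counts, and the sequencing depth behind them is unknown. The length of the scaffolds and of U to which reads can be aligned uniquely is unknown too, and its part in the values below was not tested. No gene annotation or genome of release 5 was used, so clusters are named by position and were assigned to no gene.

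GAF clusters were found on all 6 scaffolds and on U, but thinly. 2RHet carried 41 members, 3LHet 38, 3RHet 29, 2LHet 7, XHet 4 and YHet 1. Over the 19.3 Mb of these sequences the combined list had 10.4 clusters per Mb, against 52.2 on the 5 large arms 2L, 2R, 3L, 3R and X. The replicate lists had 119 and 102 clusters there, or 5.72 ± 0.62 per Mb, against 46.5 ± 0.20 on the large arms (mean ± SD, n = 2 replicates). Members covered 1.86% of their sequence and clusters of the large arms 14.0% of theirs. By density 3LHet reached 14.9 per Mb, 2RHet 12.5, 3RHet 11.5 and U 8.16. The short scaffolds 2LHet and XHet had 19.0 and 19.6 per Mb, values that rest on 7 and 4 clusters. In the 2 Mb of each large arm nearest its centromere, the arm sequence closest to the scaffolds, the combined list had 37.3 clusters per Mb and the replicates 28.9 ± 0.85 (SD, n = 2).

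The number of clusters differed between the replicates on U and hardly at all on the scaffolds. Replicate 1 had 49 clusters on U and replicate 2 had 34. On 2RHet each replicate had 22 clusters, on 3LHet they had 23 and 22, on 3RHet 17 and 18, on 2LHet 5 and 4, and on XHet 3 and 2 (replicate 1, then replicate 2). YHet had no cluster in either replicate. On the large arms the order was the other way round, with 5523 clusters in replicate 1 and 5556 in replicate 2.

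Fewer than 1 member in 2 was found again in both replicates. Both replicate lists had a cluster at 88 of the 202 members (43.6%, exact Clopper-Pearson 95% interval 36.6 to 50.7%), while over the whole combined list the share was 79.5%. Overlap meant at least 1 shared bp. A further 28 members (13.9%) were overlapped by replicate 1 alone, against 5.51% of all combined clusters, and 12 (5.94%) by replicate 2 alone, close to the 5.73% over all. The remaining 74 (36.6%, interval 30.0 to 43.7%) were overlapped by neither list, against 9.21% of all combined clusters. On the large arms 5016 of 6213 clusters were in both replicates (80.7%, interval 79.7 to 81.7%). The centromere ends of the arms stood between, with 258 of 373 (69.2%, interval 64.2 to 73.8%), and chromosome 4 had 46 of 59 (78.0%, interval 65.3 to 87.7%). These intervals cover counting error only and treat clusters as independent, which neighbours may not be. No test over clusters was made, and with 2 replicates an exact sign-flip permutation test over samples cannot give a two-sided p below 0.5.

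The share was similar among the longer scaffolds. It was 19 of 41 on 2RHet, 19 of 38 on 3LHet and 14 of 29 on 3RHet, and their intervals overlapped widely (30.7 to 62.6%, 33.4 to 66.6% and 29.4 to 67.5%). On U 30 of 82 members were in both replicates (36.6%, interval 26.2 to 48.0%). U also held 18 of the 28 members found in replicate 1 alone and 4 of the 12 found in replicate 2 alone, while the scaffolds held 10 and 8. Without replicate 1 as a requirement, 100 of the 202 members (49.5%) were overlapped by replicate 2, against 86.5% of the clusters of the large arms. Without replicate 2, 116 (57.4%) were overlapped by replicate 1, against 86.0% on the large arms.

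**Figure D1:**
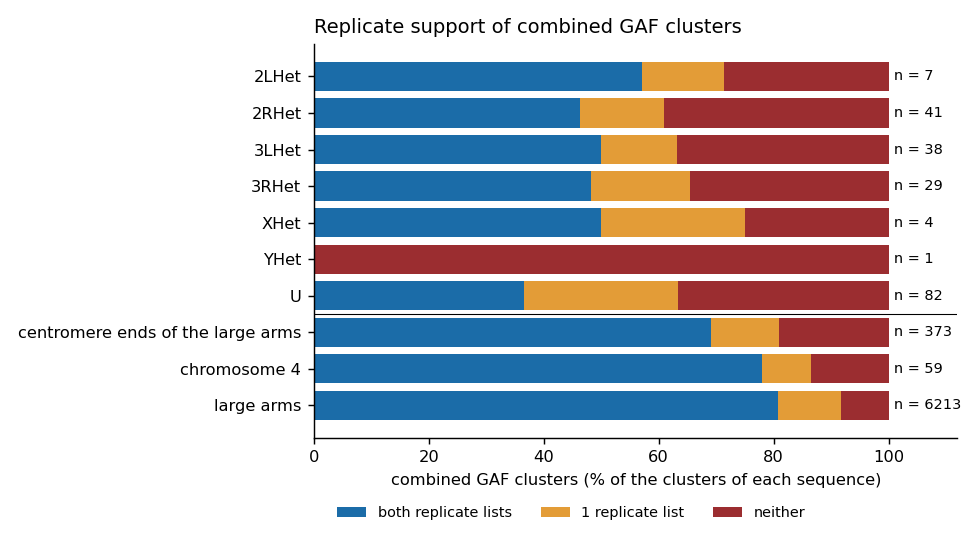
Replicate support of combined GAF clusters on each heterochromatin scaffold and on U (rows above the line) and in the centromere ends, chromosome 4 and the 5 large arms (rows below it). The horizontal axis gives the percentage of the clusters of each row in both replicate lists, in 1 or in neither, and n is the number of clusters. Both lists overlapped 36.6% of the clusters of U and 80.7% of those of the large arms.

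Replicate support in heterochromatin and U was about as frequent above the median score of the combined list as below it, while on the arms it was more frequent above. The median score of the combined list was 1.07. At or above it, 28 of 65 members were in both replicates (43.1%, interval 30.8 to 56.0%), against 3129 of 3145 clusters of the large arms (99.5%, interval 99.2 to 99.7%). Below it the shares were 60 of 137 members (43.8%, interval 35.3 to 52.5%) and 1887 of 3068 arm clusters (61.5%, interval 59.8 to 63.2%). Members in neither replicate had a median score of 0.875, those in 1 replicate 0.553 and those in both 0.639. On the large arms the order differed, with medians of 0.307 in neither, 0.177 in 1 and 1.49 in both. The order of the members' medians was not the same in both parts. On the scaffolds it was 0.750 in neither, 0.409 in 1 and 0.544 in both. On U members in both replicates had the highest median, 1.22, against 1.10 in neither and 0.765 in 1. At or above the list median, both replicates overlapped 13 of 27 clusters on the scaffolds and 15 of 38 on U. At a score of 3 or more they overlapped 6 of the 7 members of U.

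Over all members scores were lower than on the arms. The combined list gave a median of 0.711 for members, against 1.09 on the large arms. Replicate 1 gave 0.728, against 1.33, and replicate 2 gave 0.731, against 1.39. The difference, heterochromatin and U minus large arms, was -0.598 in replicate 1 and -0.656 in replicate 2, below 0 in 2 of 2 replicates. The scaffolds lay -0.714 and -0.752 from the arms in the replicates, and U lay nearer, at -0.219 and -0.139. The spread between the replicates' own medians was 0.0155 on the scaffolds, 0.0988 on U and 0.0424 on the large arms (SD, n = 2). Each difference was larger than these values, but they are not the spread of a difference taken within a replicate. The differences were not tested. The centromere ends of the arms had medians of 0.743 in the combined list, 0.871 in replicate 1 and 1.07 in replicate 2. These lay between the medians of all members and those of the whole arms, but the parts differed. The scaffolds lay below the centromere ends, at 0.601, 0.612 and 0.634 in the same order of lists. U lay above the centromere ends, at 0.912, 1.11 and 1.25. Just inside the rule, the lowest member scored 0.0100, and just outside it the highest region that was not enriched scored -0.0151.

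Members were also narrow. The combined list gave a median width of 1858.5 bp for members, against 2213 bp on the large arms. Replicate 1 gave 1961 bp, against 2230 bp, and replicate 2 gave 1955 bp, against 2236.5 bp. Only 4 of the 202 members spanned at least 3 kb (1.98%), against 25.2% of the clusters of the large arms, and none reached 5 kb, against 389 arm clusters (6.26%). The widest member lay on U from 1086195 to 1090191 and covered 3997 bp. Its score was low, at 0.538 in replicate 1 and 0.542 in replicate 2. The next lay on 3LHet from 1378051 to 1381993, with 3943 bp. There replicate 1 had 1 cluster at 0.566 and replicate 2 had 2, of which the higher scored 0.579. 2RHet held a member of 3159 bp from 392430 to 395588, with scores of 0.485 and 0.356 in replicates 1 and 2. 3RHet held 1 of 3061 bp from 2358016 to 2361076, which scored 1.62 and 1.34, and 1 of 2997 bp from 2134604 to 2137600, which only replicate 1 had, at 0.398. Of these 5 widest members, the one on 3RHet from 2358016 alone had a combined score above the list median.

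Many members were narrower than any cluster of either replicate list, the narrowest of which measured 1301 bp. This was so for 58 members (28.7%), against 6.89% of all combined clusters and 383 of the 6213 clusters of the large arms (6.16%). Of these 58, 55 were in neither replicate and 3 in 1 replicate. Their median score was 0.875, against 0.352 for the equally narrow clusters of the large arms. Among the 144 wider members, 88 were in both replicates (61.1%, interval 52.6 to 69.1%), against 86.0% of the wider arm clusters. Spearman's rho between width and score was 0.0488 over all 202 members and 0.523 over the 88 in both replicates, against 0.806 and 0.724 over 6213 and 5016 clusters of the large arms. These are descriptions across clusters, which share their libraries.

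**Figure D2:**
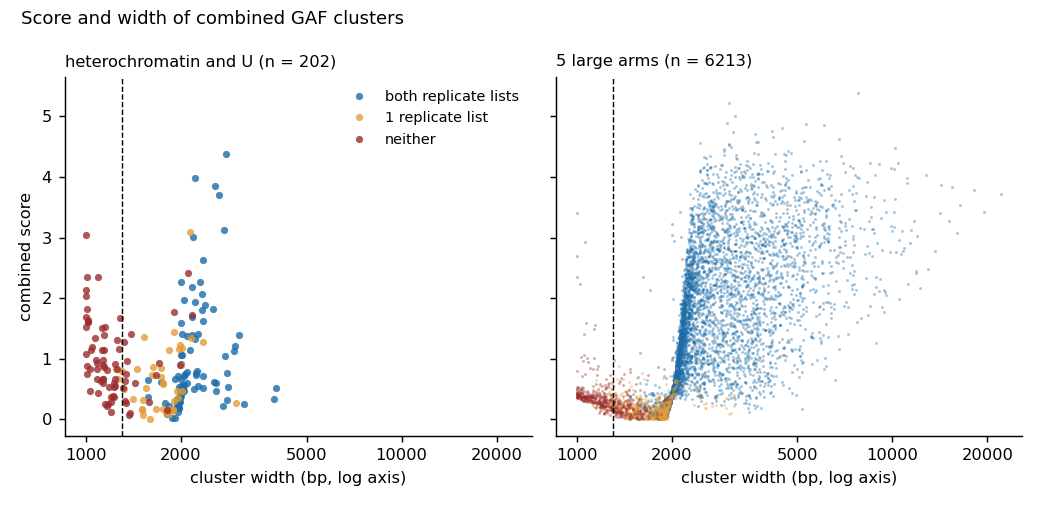
Combined score against cluster width in bp (log axis) for the 202 members (left) and the 6213 clusters of the 5 large arms (right), coloured by the replicate lists that overlap each cluster. The dashed line marks 1301 bp, the narrowest replicate cluster. Left of it, members reached scores up to 3.04 and had a median of 0.875, against 0.352 for arm clusters.

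The strongest reproducible members lay on U, and their scores were among the higher ones of the whole list. The highest ran from 5629519 to 5632296 on U, with 4.31 in replicate 1 and 4.46 in replicate 2, and its combined score of 4.37 was rank 28 of 6474. The next ran from 9866073 to 9868293, at 3.87 and 4.07, with rank 129. After it came the cluster from 6903553 to 6906110, at 3.95 and 3.76, with rank 182. The replicate values of these last 2 overlapped, so the data do not fix their order. The cluster from 7456810 to 7459453 scored 3.62 and 3.78, with rank 248. Its values overlapped those of the cluster from 6903553 and lay below those of the other 2.

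Below these came members near a score of 3. U from 7728917 to 7731658 scored 3.20 and 3.03, and U from 8672809 to 8674994 scored 3.05 and 3.02. The strongest reproducible member on a scaffold lay on 3LHet from 714442 to 716785, at 2.72 and 2.54, or 2.63 ± 0.13 (SD, n = 2), with rank 1158. 2LHet had 1 from 123521 to 125824, at 2.29 and 2.24. U from 7637327 to 7639491 gave 2.22 and 2.21. U from 9436851 to 9438850 differed most among these 10, with 3.09 in replicate 1 and 1.73 in replicate 2, an SD of 0.959 around a mean of 2.41. Of the 10 highest reproducible members, 8 were on U, 1 on 3LHet and 1 on 2LHet.

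The strongest member of each remaining scaffold was weaker or not reproduced. On 3RHet it ran from 2473014 to 2475350 and scored 1.81 in replicate 1 and 2.36 in replicate 2. On XHet it ran from 55395 to 58150, at 1.14 and 0.999. XHet also had a member from 61025 to 63064 at 0.607 and 0.629, so that both reproducible clusters of this scaffold lay side by side. The other 2 members of XHet scored 0.162 from 1752 to 3554, in neither replicate, and 0.161 from 133953 to 135844, where replicate 1 alone had a cluster at 0.303. The only member of YHet covered 1011 bp from 318802 to 319812, scored 1.82 and was in neither replicate.

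High scores without a replicate cluster were common among members. The highest lay on 2RHet from 3096879 to 3097879, where 1001 bp scored 3.04 with no cluster in either replicate. It had the smallest width found in the combined list, shared by 6 members and 18 clusters in all. U from 7529674 to 7531778 scored 2.42 over 2105 bp, which is wider than the narrowest replicate cluster of 1301 bp. 2RHet from 743628 to 744636 and U from 5899485 to 5900578 both scored 2.35, and U from 7152973 to 7153973 scored 2.14. At a score of 2 or more, 11 of 18 members were in both replicates and 6 in neither, against 1875 and 11 of 1886 arm clusters. At 3 or more, 6 of 8 members were in both replicates, all 6 of them on U, against 767 of 771 arm clusters.

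Where both replicates had a cluster, their scores ranked alike. For 87 of the 88 reproducible members 1 cluster of each replicate matched 1 of the combined list. Over these, Spearman's rho between the replicates was 0.916 and Pearson's r was 0.937, against 0.958 and 0.969 over 4875 such clusters of the large arms, all as descriptions across clusters of the same libraries. The spread of a member's score between replicates was taken as the within-cluster SD for n = 2. This is a root mean square, in which a few clusters can weigh heavily. For members the spread was 0.235, against 0.199 on the large arms. It was 0.200 over 57 clusters of the scaffolds and 0.290 over 30 of U. The direction turned with the score. With a replicate mean below 0.5 the SD was 0.107 for members and 0.150 on the large arms, and with a mean of 0.5 to 1 it was 0.125 and 0.214. With a mean of 1 to 2 it was 0.342 for 25 members and 0.244 on the arms. With a mean of 2 or more it was 0.326 for 11 members and 0.171 on the arms. The member values in these higher classes rest on few clusters. Among the 11, U from 9436851 had an SD of 0.959 and the next highest, 3RHet from 2473014, had 0.393. The largest among the 25 were 0.934 at 2RHet from 2597979 and 0.882 at U from 9750306. Values without these members were not computed. Replicate 2 scored higher at 47 members and replicate 1 at 40, with a median difference, replicate 1 minus replicate 2, of -0.0110. The SD exceeded 0.5 at 5 of the 87 members (5.75%), against 2.28% of arm clusters.

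The share of clusters found again differed between the replicate lists. Of the 119 clusters of replicate 1 on these sequences, 89 overlapped a cluster of replicate 2 (74.8%, interval 66.0 to 82.3%), against 92.6% on the large arms. Of the 102 clusters of replicate 2, 89 overlapped one of replicate 1 (87.3%, interval 79.2 to 93.0%), against 91.7% on the large arms. The scaffolds gave 59 of 70 clusters of replicate 1 (84.3%) and 59 of 68 of replicate 2 (86.8%). U gave 30 of 49 of replicate 1 (61.2%, interval 46.2 to 74.8%) and 30 of 34 of replicate 2 (88.2%, interval 72.5 to 96.7%). On the scaffolds clusters of replicate 1 without a partner had a median score of 0.398 and those with one 0.659, while in replicate 2 the medians were 0.734 and 0.627. On U they were 1.07 without and 1.25 with a partner in replicate 1, and 1.15 and 1.34 in replicate 2. Pooled over both parts the medians were 0.716 and 0.728 in replicate 1 and 1.08 and 0.693 in replicate 2. U, which scored higher, held 19 of the 30 clusters without a partner in replicate 1 and 4 of the 13 in replicate 2. Among clusters with a partner it held 30 of 89 in each replicate. What this mix of parts adds to the pooled medians was not tested. On the large arms clusters without a partner had medians of 0.311 and 0.326 in the 2 replicates, against 1.48 and 1.56 with one.

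**Figure D3:**
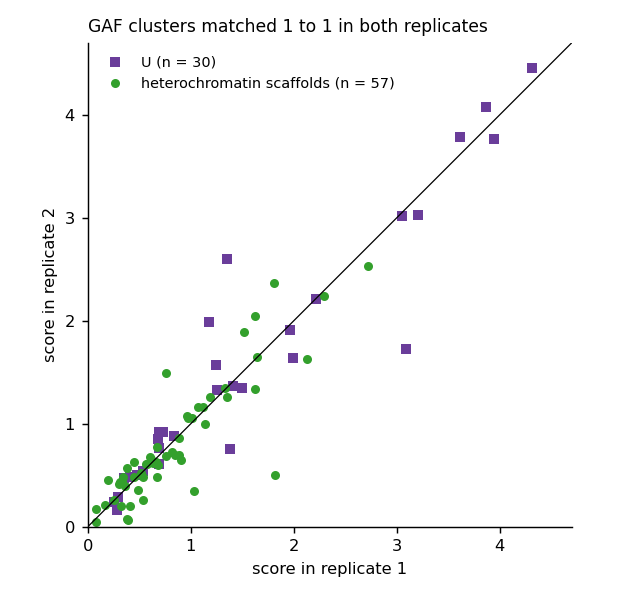
Score in replicate 1 (horizontal axis) against score in replicate 2 (vertical axis) for the members matched 1 to 1, with 30 on U and 57 on heterochromatin scaffolds, and the line of equal scores. Members above 3 in both replicates are all on U, and the point far to the right of the line on U is the cluster at 3.09 and 1.73.

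The combined score of a reproducible member was often below both replicate scores. This was the case at 45 of the 87 matched members (51.7%), against 1107 of 4875 clusters of the large arms (22.7%). A combined score above both was rare everywhere, with no matched member and 15 of the 4875 arm clusters (0.31%). A combined score below both was more frequent at low than at high scores. With a replicate mean below 0.5 it held for 15 of 24 members (62.5%), against 46.2% of 762 arm clusters in the same range. With a mean of 0.5 to 1 it held for 20 of 27 members (74.1%), against 23.5% of 931 arm clusters, and the median of combined score minus replicate mean was -0.0825 and -0.0215. At a mean of 1 to 2 it held for 8 of 25 members (32.0%), against 14.3% of 1352 arm clusters, and at a mean of 2 or more for 2 of 11 members, against 18.7% of 1830 arm clusters. The way in which the authors combined the replicates is not given in the sources used here.

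Members lay far apart. The median gap to the next cluster of the same scaffold was 30.4 kb on 2RHet, 31.1 kb on 3LHet and 23.9 kb on 3RHet, and 62.3 kb on U, where pieces are strung together. Over all member sequences it was 40.7 kb in the combined list and 81.9 ± 1.37 kb in the replicates, against 8.39 and 9.59 ± 0.07 kb on the large arms (SD, n = 2). Members with a neighbour at most 5 kb downstream made up 37 of 195 gaps (19.0%), against 36.8% on the large arms. Between reproducible clusters the median gap was 70.0 kb on the scaffolds and 165.6 kb on U, against 10.7 kb on the large arms. The centromere ends had 13.0 kb between all clusters and 15.5 kb between reproducible ones.

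Long stretches held no member. The longest on U ran from 4485911 to 5521588 (1036 kb), from 3446907 to 4413061 (966 kb) and from 230667 to 1086194 (856 kb). On 2RHet no member lay from 1857863 to 2597978, 740 kb or 22.5% of the scaffold. 3RHet had none in its first 638 kb, 25.4% of its length, and none from 819939 to 1205846. YHet had none in its first 319 kb. In the combined list no gap between clusters of the large arms was longer than 251 kb. That value leaves out the ends of the arms, while the first stretches of 3RHet and YHet start at a sequence end.

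Most reproducible members lay alone, and 3 stretches held several. Members in both replicates were joined where the gap between them was at most 20 kb, which gave 66 stretches, of which 49 held 1 member, 14 held 2 and 3 held 3 or more. The largest lay near the far end of 3RHet, from 2347566 to 2381429, where 33.9 kb held 5 reproducible members and 1 other. Their combined scores ran from 0.210 to 1.69. The strongest, from 2373240 to 2375415, scored 1.51 in replicate 1 and 1.89 in replicate 2, and the next, from 2358016 to 2361076, 1.62 and 1.34. The member from 2379219 to 2381429 gave nearly equal values, 1.33 and 1.35. The strongest member of 3RHet, from 2473014 to 2475350, lay 91584 bp beyond this stretch.

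The other 2 stretches held 3 reproducible members each. On 3LHet 25.8 kb from 691003 to 716785 ended in the strongest member of that scaffold, while the 2 before it had combined scores of 0.395 and 0.512. On U 20.1 kb from 1086195 to 1106311 began with the widest member and also held a member from 1099691 to 1101958 at 1.50 in replicate 1 and 1.34 in replicate 2. The 3 stretches held 11 of the 88 reproducible members (12.5%), against 75.0% of reproducible clusters of the large arms in stretches of 3 or more by the same rule. Members alone in their stretch made up 55.7%, against 12.6% on the arms. Their density differs as given above, which by itself changes how many are joined. Joining at gaps of at most 50 kb gave 7 stretches of 3 or more, and counting members at or above the list median score alone gave 1.

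Support was spread unevenly along some scaffolds. On 3RHet the part before the midpoint had 6 members, of which 1 was in both replicates, and the part beyond it 23, of which 13 were. Replicate 1 had 1 and 16 clusters in these parts and replicate 2 had 2 and 16. On 2RHet it was the other way round, with 27 members before the midpoint, 14 of them reproducible, and 14 members beyond it, 5 of them reproducible. Replicate 1 had 17 and 5 clusters there and replicate 2 had 16 and 6. 3LHet was even, with 19 members on either side of its midpoint, 10 and 9 of them reproducible.

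On U the 2 sides differed in score. Before its midpoint the highest of 35 members scored 1.61 and the median of the reproducible ones was 0.526. Beyond it 13 of 47 members scored 2 or more and the median of the 17 reproducible ones was 1.97. The replicate lists gave medians of 0.576 before and 1.75 beyond the midpoint in replicate 1, and 0.763 and 1.99 in replicate 2. The deposited files do not say in which order the pieces of U were strung together.

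**Figure D4:**
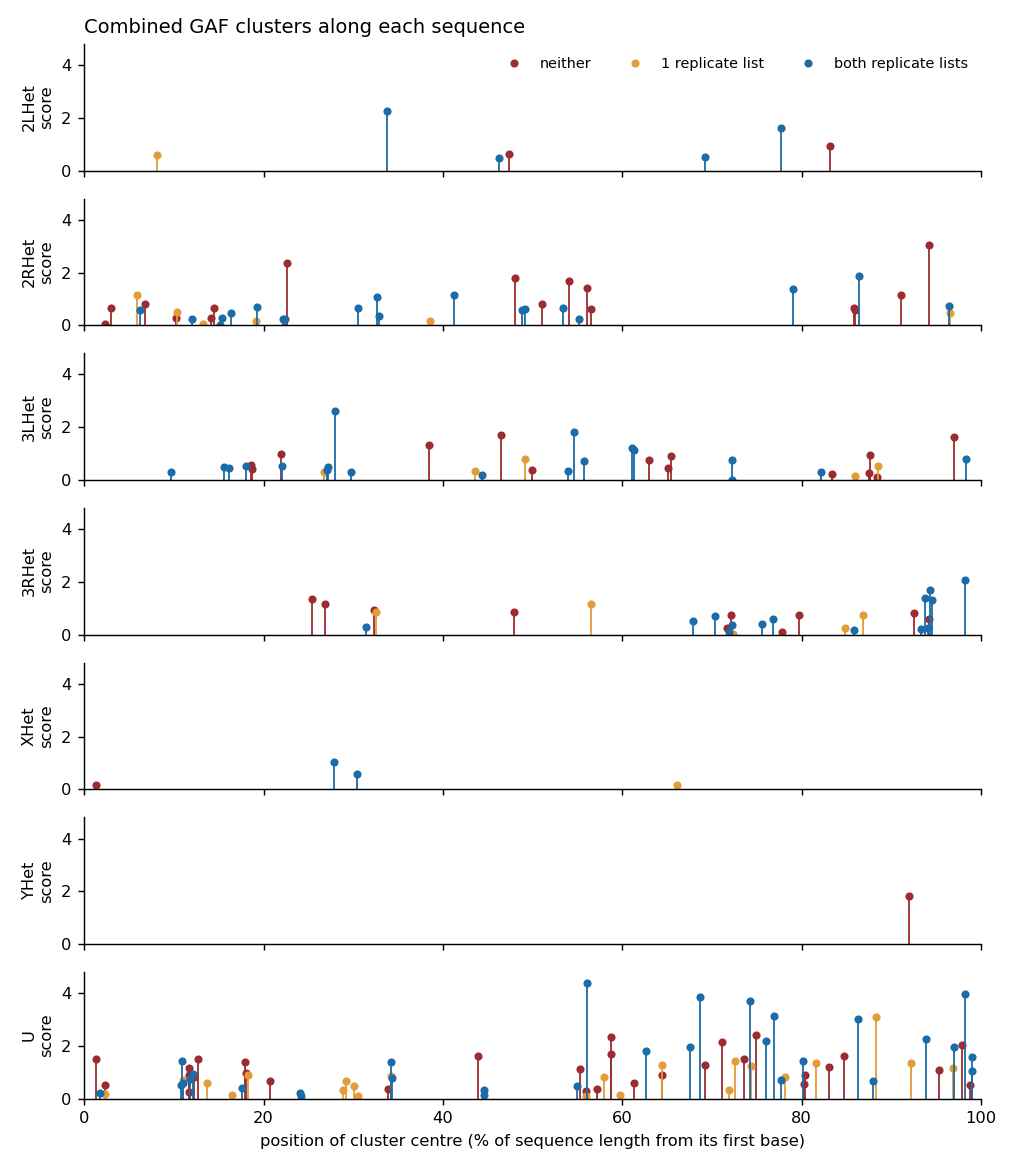
Combined GAF clusters along each heterochromatin scaffold and U, with the position of each cluster's centre as a percentage of the sequence length (horizontal axis), its combined score (vertical axis) and its replicate support (colour). Of the 14 reproducible clusters of 3RHet 13 lie beyond its midpoint, and members scoring 2 or more on U all lie beyond its midpoint.

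**Figure D5:**
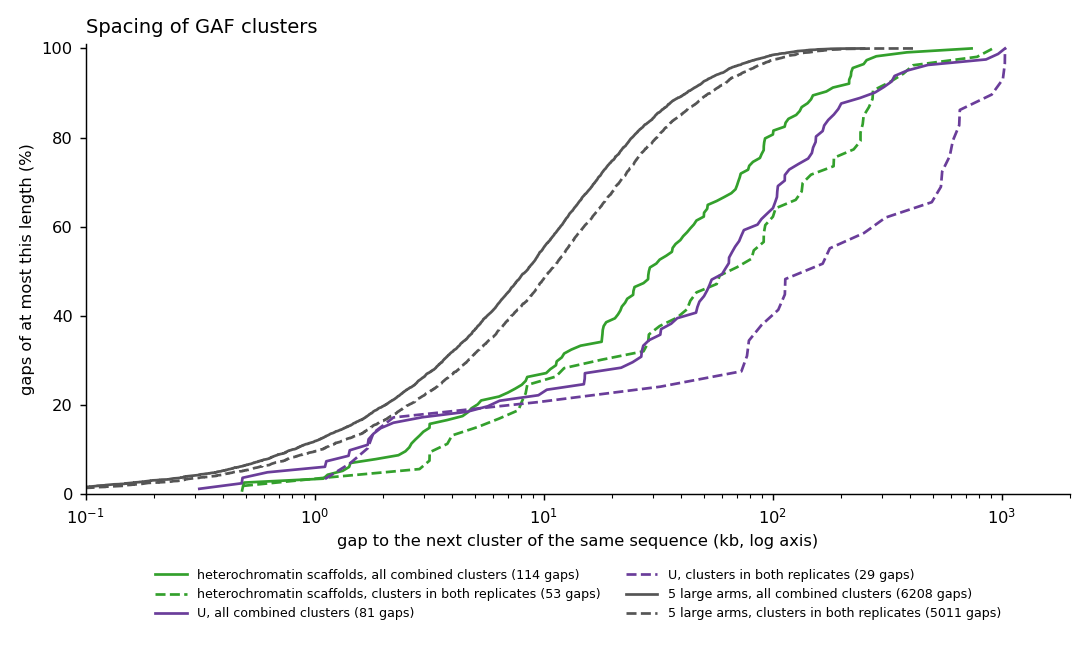
Cumulative percentage of gaps (vertical axis) by gap length in kb (horizontal log axis) between neighbouring clusters on heterochromatin scaffolds, on U and on the 5 large arms, for all combined clusters (solid) and for those in both replicates (dashed). The median gap is 29.0 kb on the scaffolds, 62.3 kb on U and 8.39 kb on the large arms.

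Members shared their exact score with other clusters more often than arm clusters did. As deposited, 32 of the 202 members (15.8%) had a score equal to that of another combined cluster, against 5.45% of all combined clusters and 318 of 6213 on the large arms (5.12%). In the replicate lists it was 17 of 119 (14.3%) and 19 of 102 (18.6%), against 7.68% and 8.23% on the large arms. In replicate 1 the scaffolds had 5 of 70 tied (7.14%), no more than the arms, and U had 12 of 49 (24.5%). In replicate 2 the scaffolds had 11 of 68 (16.2%) and U 8 of 34 (23.5%). The 32 members shared 27 values. Of these values, 24 also occurred on a large arm and 3 occurred among members alone. The value 0.826 occurred 3 times, at 2RHet from 221538, 2RHet from 1679994 and U from 7856965. The value 2.35 occurred 4 times, of which 2 were members, on 2RHet and on U. The values 1.52 and 1.61 occurred 2 times each, always on U. Of the 32 tied members 20 were in neither replicate, 6 in 1 and 6 in both, and 17 were narrower than any replicate cluster. Of the 353 tied clusters of the whole combined list, 113 were in neither, 82 in 1 and 158 in both. Among all 202 members, tied or not, 36.6% were in neither replicate and 28.7% were narrower than any replicate cluster. Tied members had a median width of 1250 bp and the others 1908.5 bp. The largest tie of the combined list, 20 clusters at 0.231, held no member.

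Exact relations between scores also bear on the scale on which the score lies. In 8 pairs of members the scores differed by exactly 1 unit (within 1e-09), as between YHet from 318802 at 1.82 and 3RHet from 2328393 at 0.816. Such pairs were not counted among arm clusters, so they do not set members apart from the arms. Each score was then set against the commonest score of its list, and 2 raised to that difference was compared with ratios of whole numbers up to 100. Such a ratio was met within a relative 1e-09 by 92 of the 202 members (45.5%), against 9.13% of all combined clusters and 7.93% of those on the large arms. Limits other than 100 were counted for members alone. With 10 as the base 1 member met one, and with the natural base e none did. Where such a ratio was met, the deposited score thus has the form of a base 2 logarithm of a ratio plus a constant. The files do not name the quantities in it, and for the other clusters the form was not shown. The share that met such a ratio was 77.0% among the 74 members in neither replicate, 55.0% among the 40 in 1 and 14.8% among the 88 in both. On the large arms it was 25.4%, 16.0% and 5.07%. In the replicate lists 42.9% and 42.6% of clusters on these sequences met such a ratio, against 12.1% and 14.0% on the large arms. What the whole numbers stand for was not tested, since no counts are given.

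Depleted regions and clusters missing from the combined list were few. The combined list had 3 depleted regions on these sequences of 210 in all, replicate 1 had 1 of 12 and replicate 2 none of 8. On U from 2080570 to 2082388 the combined list scored -0.151, and replicate 1 also called a depleted region there, at -0.0456. On 3RHet from 1853255 to 1855121 the combined list scored -0.0151, although both replicates had an enriched cluster there, at 0.0302 and 0.229. On 3LHet from 2021778 to 2023379 it scored -0.0441, where replicate 1 alone had an enriched cluster, at 0.207. These account for all but 1 of the replicate clusters that the combined list lacked, 3 of 119 in replicate 1 and 1 of 102 in replicate 2. The exception was a cluster of replicate 1 on U from 7052534 to 7053928, which scored 2.76 over 1395 bp and had no partner in replicate 2 or in the combined list.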

How the data were processed

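The authors deposited 3 region lists from ChIP-seq, each giving a start, an end, a type and a signed score per region. Coordinates are those of FlyBase release 5, per the file headers. Reads were aligned with Bowtie 0.12.7, per the submitters' processing notes. The deposited score is the authors' own value, above 0 in enriched and below 0 in depleted regions. Regions were listed per replicate and for the combined set. The region caller, its threshold and the way of combining are not stated in those sources. Depth is unknown.

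From these lists overlaps (at least 1 bp), widths, edge-to-edge gaps and ties were computed with Python 3.11.15, pandas 2.3.3 and scipy 1.17.1. Routines were tested on simulated data. Shares have exact binomial 95% intervals. Clusters of 1 library are not replicates, so no p-value over clusters is given, and values are means ± SD over the 2 replicates. Named clusters are the 10 highest reproducible members, the highest of each sequence, the 5 widest, those of XHet and YHet, the 5 highest in neither replicate, the stretches of 3 or more and the 3 largest ties, by the number of members in a tie. Other clusters named were chosen after their values were seen, as was the ratio comparison of scores. Since 3 of these ties hold 2 members each, 4 tie groups are given. Members and lists were chosen with earlier results of these data known. Planned sequence motifs need a release 5 genome and were not computed.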

Additional observations from a re-analysis of the deposited data

How the results depend on the processing

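A reciprocal overlap of 50% left the count of members in both replicates at 88, their share at 43.6% and the stretches of 3 or more at 3. With 1 replicate left out, the members supported ranged from 100 to 116, their share from 49.5 to 57.4%, and the stretches of 3 or more numbered 4. From a single replicate list in place of the combined one, the median score ranged from 0.728 to 0.731, the median width from 1955 to 1961 bp, the density from 5.28 to 6.16 per Mb and the median gap from 81.0 to 82.9 kb. At or above the list median score, 28 members were in both replicates, with a median width of 2006 bp over 65 members, 3.36 per Mb, a median gap of 154.9 kb and 1 stretch. Without U the median score was 0.601, the median width 1886.5 bp, the density 12.9 per Mb, the median gap 29.0 kb and the tied members 14. Reproducible members alone had a median score of 0.639, a median width of 2072 bp and a median gap of 91.5 kb. Joining at 10 kb gave 2 stretches and at 50 kb 7. Rounding scores to 2 decimals left all 202 members tied, so a tie has meaning at full precision alone. Members at least 1301 bp wide, an alternative chosen after seeing the data, had a share of 61.1%, a median score of 0.612, 7.45 per Mb and 15 ties. Whole numbers up to 30 and 300 were met by 38 and 149 of the 202 members, so the count depends on the limit chosen. For these 2 limits nothing was counted on the large arms or over the whole list. No paired analysis was possible because the groups that share replicate numbers are GAF ChIP and input, and no list of the inputs was analysed. Differences within each ChIP replicate are given as values with no test. These alternatives change which clusters are counted, and no other cause of the changes was tested. Depth, uniquely alignable length and the order of pieces in U are unknown and limit every comparison with the arms.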
